A study of Homo sapiens with 16 samples.

Results

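Glycolysis and hypoxia genes were followed through 16 RNA-seq libraries of 3 human cell lines from T-cell acute lymphoblastic leukaemia (T-ALL), CUTLL1, KOPTK1 and HPB-ALL. The 38 members, of 57820 genes in the table, were chosen by symbol: 19 glycolytic enzymes with their regulators, 6 transporters and gatekeepers of pyruvate, and 13 genes of oxygen sensing and of the hypoxia-inducible factor (HIF) response. All 38 symbols were present. The study targeted lnrCXCR4, a long non-coding RNA, either with lentivirus carrying CRISPR components or with an antisense oligonucleotide (ASO) added to the medium at 1 uM. The targeted libraries were 2 of CUTLL1, 2 of KOPTK1 and 2 of HPB-ALL with guides (sgRNA1 and sgRNA2), and 2 of CUTLL1 and 2 of KOPTK1 with ASOs (ASO1 and ASO2). Their controls were 1 non-targeting guide library of CUTLL1, 1 of KOPTK1 and 2 of HPB-ALL, and 1 scrambled ASO library each of CUTLL1 and KOPTK1. All cells grew in RPMI with serum. The labels give neither the kind of CRISPR protein nor the length of treatment. They do not say whether libraries of a group are separate cultures. Each p-value therefore reflects only the spread among these libraries, which may be technical. In targeted groups that spread also covers the difference between 2 guides or 2 ASOs.

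Glycolysis splits glucose into pyruvate in the cytosol, with hexokinase and phosphofructokinase as its committed steps, and lactate dehydrogenase turns pyruvate into lactate for export. Leukaemic T cells, like activated T cells, run this pathway fast even with oxygen present. Prolyl hydroxylases of the EGLN family use oxygen to mark the HIF1A protein for destruction by the VHL ligase, and when oxygen is short HIF1A persists and raises transcription of many of these enzymes, of the glucose and lactate transporters, and of genes such as BNIP3 and PDK1. That control acts on the protein, so the RNA level of HIF1A is not a readout of HIF activity.

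Each library held 34547469 to 72178929 reads as recovered from the normalised counts. In the guide comparison 67.7% of the 14069 genes tested were called and in the ASO comparison 65.0% of 13712, so most genes changed, members or not. The table has 0 rows named for lnrCXCR4, and its level was not analysed here. Over genes with at least 50 reads in a pair, the mean chi-square per gene is 1 for counting noise alone. It was 2.49 to 6.75 between the 2 libraries of 1 group. It was 2.29 to 14.5 between guide and ASO libraries of the same line and arm. Between targeted and control libraries of a line it was 168 to 305. By their titles the 2 targeted libraries of a group differ in guide or ASO. The HPB-ALL control pair, both titled non-targeting guide, gave 2.49. Libraries of the 2 agents within a line and arm thus lay far nearer each other than targeted libraries lay to controls. Their largest value, 14.5, exceeded the 6.75 within a group, and no label says whether they share cultures. The T-lineage markers were all detected, with a summed level of 51250 to 68290 normalised counts in targeted libraries, against 119400 to 144500 in controls. In both comparisons 8 of 8 fell, where 35.0% of all genes fell with guides and 33.2% with ASOs. In KOPTK1 alone 7 of the 8 were called down with each agent. The summed B-lineage markers ran from 151 to 573 in targeted libraries, against 352 to 2667 in controls, and the myeloid and erythroid sums stayed at or below 47.6. The epithelial or fibroblast sum reached 453 in targeted libraries, against 46.7 in controls, with COL1A1 its largest part. Mitochondrial transcripts took 2.46% to 3.25% of counts in targeted libraries, against 1.84% to 2.48% in controls. The part of these shifts in the results on members was not tested.

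Of the 38 members, 36 passed the filter of a mean of 20 normalised counts, and every change below is a log2 difference, targeted minus control, on the log2(normalised count + 1) scale, from limma with Benjamini-Hochberg adjusted p. In the guide comparison (6 targeted and 4 control libraries, with line as a term) 25 of 36 tested members were called, 69.4%, against the 67.7% of all genes tested. Of these, 15 rose, where 32.7% of all genes did, and 10 fell, where 35.0% did. In the ASO comparison (4 targeted and 2 control libraries) 24 of 36 were called, 66.7%, against 65.0% of all genes, with 16 that rose (31.8% of all genes) and 8 that fell (33.2%). The members thus changed about as often as genes at large. Their median log2 fold change was 0.11 with guides and 0.15 with ASOs, against -0.03 and -0.01 for all genes. The median absolute change was 0.32 and 0.38, against 0.39 and 0.37 for all genes.

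The set split within itself rather than shifting one way. Of the enzymes, 6 of 19 rose and 7 fell with guides, and 7 rose and 6 fell with ASOs. Of the transporters and pyruvate gatekeepers, 3 of 6 rose and 2 fell with guides, and 2 rose and 2 fell with ASOs. Of the oxygen-sensing and HIF-target genes, 6 of the 11 tested rose and 1 fell with guides, and 7 rose and 0 fell with ASOs. Of all genes tested, 32.7% rose and 35.0% fell with guides, and 31.8% rose and 33.2% fell with ASOs. In the oxygen-sensing and HIF-target group 63.6% were called with each agent, against 67.7% and 65.0% of all genes. Among members, 12 rose in both comparisons, which share no library (28.6% of the 13437 genes tested in both), and 8 fell in both (29.6%). Across the 5 single experiments 10 members rose in each (ALDOC, TPI1, GAPDH, PKM, SLC2A1, PDK3, HIF1A, BNIP3L, P4HA1 and NDRG1), where 19.8% of 14020 genes did so. A further 6 fell in each (HK2, GPI, PFKM, PFKP, SLC16A3 and PDK1), where 20.8% of genes did. PGAM1 and ANKRD37 were called in none of the 5. The 6 falling members kept their call in each experiment under every alternative, while 7 of the 10 rising ones lost at least 1 call. TPI1, SLC2A1 and HIF1A lost a call when 1 library was left out: without the first targeted guide library of KOPTK1, the KOPTK1 guide value was 0.11 (adjusted p = 0.0706) for TPI1 and 0.14 (adjusted p = 0.0814) for SLC2A1, and HIF1A in HPB-ALL was 0.05 (adjusted p = 0.167) without the second targeted library of that line. Over all alternatives run for these 3 single-experiment results the adjusted p ran from 0.00221 to 0.122, 0.00128 to 0.0819 and 0.00757 to 0.167. GAPDH in 3 experiments and PKM in HPB-ALL lost theirs under quantile scaling, and ALDOC in CUTLL1 and NDRG1 in KOPTK1 lost their guide calls with no filter on low values.

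By experiment, the guides in CUTLL1 gave 16 rising members of 36 (30.8% of all genes) and 11 falling ones (31.5%), with 62.3% of all genes called. Under TMM scaling, a trimmed-mean normalisation, these were 16 and 7. Rises then made up 69.6% of the members' calls, where they were 59.3% under the main scaling. Over all genes rises made up 50.5% of calls under TMM and 49.5% under the main scaling. Quantile scaling gave 15 rising and 11 falling members, or 57.7% rises, against 55.7% over all genes. The guides in KOPTK1 gave 16 rising members (31.0% of all genes) and 9 falling ones (33.1%), with 64.1% of all genes called. In HPB-ALL 16 members rose (34.0% of all genes) and 16 fell (36.9%), with 70.9% of all genes called. With ASOs, 18 members rose (30.5% of all genes) and 9 fell (31.8%) in CUTLL1, with 62.3% of all genes called. In KOPTK1 with ASOs 18 rose (30.6%) and 9 fell (32.8%), with 63.4% of all genes called.

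**Figure D1:**
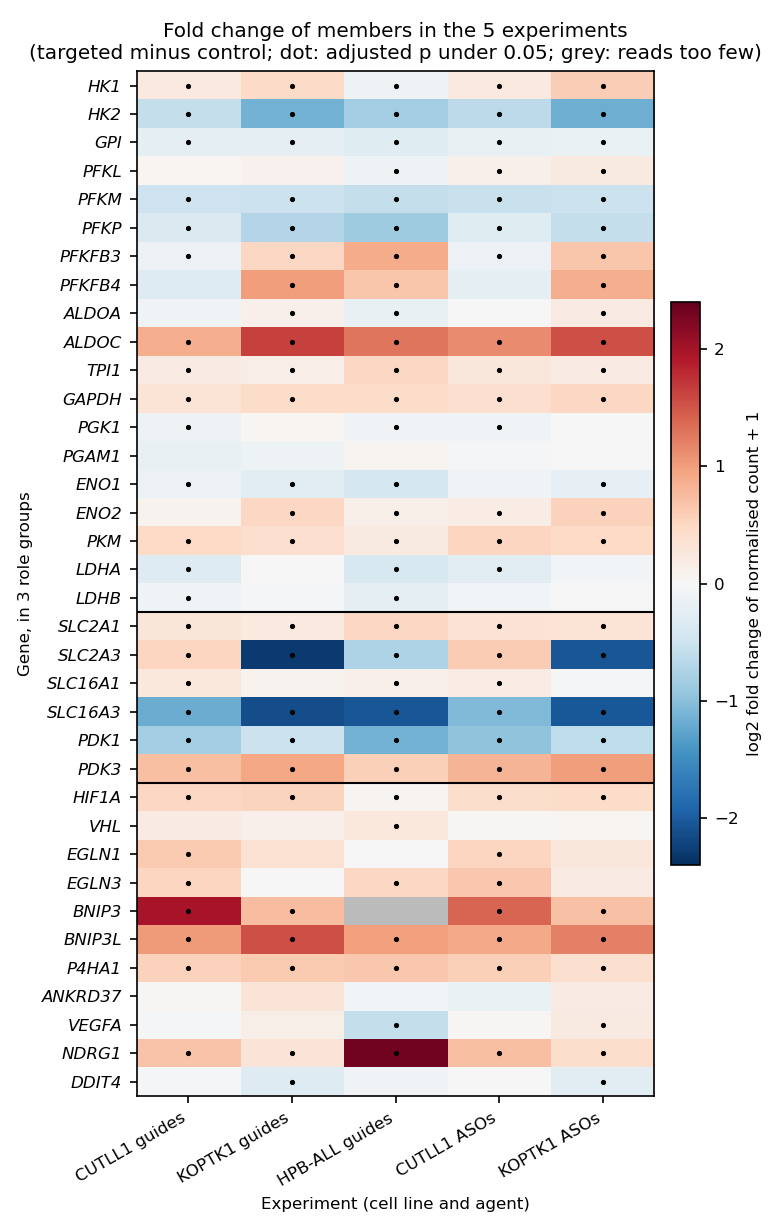
Log2 fold change (colour, red higher and blue lower in targeted libraries) of the 36 tested members in each of the 5 experiments, with rows in 3 role groups (enzymes, transporters and pyruvate gatekeepers, oxygen sensing and HIF targets) and a dot where the adjusted p was under 0.05. Most rows keep 1 colour across the 5 columns, while PFKFB3, SLC2A3 and HK1 change colour between lines; the grey cell is BNIP3 in HPB-ALL, with 0 reads in targeted and 2 reads in each control library.

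Upstream sequences of a few members are shown here because HIF binds DNA at a core ACGTG (or GCGTG), and because MYC and related factors bind CACGTG, which contains the same letters. RefSeq promoters (GRCh38.p14, 250 bases before to 50 after each start) were matched by symbol for 32 of the 38 members, with 59 starts. SLC2A3, SLC16A1, VHL, BNIP3L, VEGFA and NDRG1 had no entry. The 250 bases upstream are printed in the direction of transcription, with each ACGTG, on either strand, in capitals, so that CACGTG, which reads the same on both strands, appears as 6 capitals. First come ALDOC and GAPDH, which rose in all 5 experiments, then HK2, which fell in all 5, and LDHA, which fell in both comparisons. BNIP3 and EGLN1, nearly absent from HPB-ALL, come last. They were picked after these values and matches were seen, and for HK2 and LDHA the start with the most ACGTG is shown, so they do not stand for the set: CACGTG is in 5 of these 6.
ALDOC (chr17:28576896-28577145, minus strand): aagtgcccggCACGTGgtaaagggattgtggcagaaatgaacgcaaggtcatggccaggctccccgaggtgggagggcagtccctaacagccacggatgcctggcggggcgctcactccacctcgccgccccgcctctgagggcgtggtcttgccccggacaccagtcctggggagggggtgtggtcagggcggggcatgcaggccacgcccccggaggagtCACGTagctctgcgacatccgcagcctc
GAPDH (chr12:6535014-6535263, plus strand): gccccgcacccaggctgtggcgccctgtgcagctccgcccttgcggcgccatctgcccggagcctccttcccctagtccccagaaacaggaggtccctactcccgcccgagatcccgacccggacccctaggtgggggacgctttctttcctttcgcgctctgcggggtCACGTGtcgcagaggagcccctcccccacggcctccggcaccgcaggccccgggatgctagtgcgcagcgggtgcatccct
HK2, 1 of 2 starts (chr2:74834920-74835169, plus strand): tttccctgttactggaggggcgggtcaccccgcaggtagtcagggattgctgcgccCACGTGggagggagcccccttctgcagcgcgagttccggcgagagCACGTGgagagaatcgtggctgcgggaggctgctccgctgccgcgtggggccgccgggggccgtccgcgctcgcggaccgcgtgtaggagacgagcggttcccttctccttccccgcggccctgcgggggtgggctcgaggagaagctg
LDHA, 1 of 2 starts (chr11:18394313-18394562, plus strand): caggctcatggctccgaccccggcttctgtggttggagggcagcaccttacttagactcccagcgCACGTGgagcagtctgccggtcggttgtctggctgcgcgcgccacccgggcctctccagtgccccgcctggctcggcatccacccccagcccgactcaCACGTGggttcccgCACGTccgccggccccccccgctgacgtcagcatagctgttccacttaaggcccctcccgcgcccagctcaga
BNIP3 (chr10:131981924-131982173, minus strand): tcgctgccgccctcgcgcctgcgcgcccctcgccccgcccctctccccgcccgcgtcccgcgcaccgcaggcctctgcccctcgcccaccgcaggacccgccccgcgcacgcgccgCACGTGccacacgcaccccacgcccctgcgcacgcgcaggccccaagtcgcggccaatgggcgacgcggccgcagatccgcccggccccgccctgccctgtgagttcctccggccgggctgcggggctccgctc
EGLN1 (chr1:231422288-231422537, minus strand): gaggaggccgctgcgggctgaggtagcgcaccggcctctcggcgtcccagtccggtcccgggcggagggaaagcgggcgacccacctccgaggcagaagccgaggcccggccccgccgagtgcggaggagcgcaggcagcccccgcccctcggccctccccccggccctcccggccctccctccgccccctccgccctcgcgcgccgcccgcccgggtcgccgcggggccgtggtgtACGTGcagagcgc
ACGTG lay in a promoter window of 20 of the 32 members, 62.5%, against 24.9% of the 27305 genes with a promoter in the table, counting a gene once if any of its starts held it. Per promoter of the same length the shares were 40.7% of 59 and 21.4% of 35116. CACGTG was in 8 members, 25.0%, against 8.77% of genes, and ACGTG outside CACGTG in 17 members, 53.1%, against 18.2%. GCGTG was in 20 members, 62.5%, against 40.6% of genes. Counted per promoter, its shares lay closer together, at 40.7% of the 59 member promoters and 36.5% of all 35116. ACGTG was in 6 of the 10 matched members that rose in both comparisons and in 7 of the 8 that fell in both. ACGTG outside CACGTG was in 5 of the 10 and 7 of the 8. These counts again take a member if any of its starts held it, so members with more starts had more windows to match. Of those that fell, PFKM had 7 starts, SLC16A3 5 and PFKP 4, while none that rose had more than 2. The shares of risers and fallers are therefore not comparable per promoter, and they were not tested. These are matches of letters and show no binding.

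HK2, the inducible hexokinase that traps glucose in activated and malignant cells, was lower in every targeted library. Values are given for the guide libraries and then for the ASO libraries, controls likewise; HPB-ALL had guides alone. HK2 stood at 2652, 2689, 2646 and 2644 normalised counts in targeted CUTLL1 libraries, against 3979 and 4079.9 in CUTLL1 controls. In KOPTK1 the targeted libraries held 1248, 1337, 1252 and 1244, against 2845 and 2829.8 in the controls. The targeted HPB-ALL libraries held 3122 and 3159.6, against 5666 and 5534 in HPB-ALL controls. No targeted library of any line overlapped its controls. The fold change was -0.85 (SE 0.077, adjusted p = 8.05e-06) with guides and -0.90 (SE 0.12, adjusted p = 0.000598) with ASOs, that is to 0.556 and 0.535 of the control level.

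HK1, the constitutive hexokinase, stood at 10232, 10370.2, 10367 and 10563 normalised counts in targeted CUTLL1 libraries, against 8810.4 and 8907 in the controls, and at 7932, 7776, 8096 and 8126 in targeted KOPTK1 libraries, against 5697 and 5388 in theirs. In HPB-ALL it was lower, with 14898 and 14770.0 in targeted libraries and 15924 and 16169 in controls. HK1 therefore rose in CUTLL1 and KOPTK1 with both agents and fell in HPB-ALL, where the fold change was -0.11 (SE 0.025, adjusted p = 0.00152). The HPB-ALL call of HK1 did not hold under every alternative: the value ran from -0.12 to -0.05 and its adjusted p from 0.00096 to 0.267. Over the 3 lines with guides it was not called, at 0.15 (SE 0.084, adjusted p = 0.142), and with ASOs it was 0.41 (SE 0.076, adjusted p = 0.00319), or 0.23 without the KOPTK1 ASO control, which leaves CUTLL1 alone. Per kilobase of transcript HK1 was the more abundant of the pair in all lines, with 2880.0 normalised counts per kilobase in targeted and 2457 in control CUTLL1 libraries, against 460.5 and 698 for HK2.

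Glucose enters through SLC2A1, the main glucose carrier of proliferating T cells. The normalised counts of SLC2A1 were 4495, 4418, 4477 and 4647 in targeted CUTLL1 libraries, against 3648 and 3601 in their controls. KOPTK1 gave 2829, 2496, 2830.2 and 2676 with targeting, against 2271 and 2203 in its controls. HPB-ALL gave 3669 and 3436 with targeting, against 2570.3 and 2439 in its controls. All 10 targeted libraries lay above their controls, and the change was 0.36 (SE 0.06, adjusted p = 0.000428) with guides and 0.33 (SE 0.04, adjusted p = 0.000486) with ASOs. SLC2A3, a second, high-affinity glucose carrier, went opposite ways in the lines. It stood at 1729, 1727, 1779 and 1702 in targeted CUTLL1 libraries, against 1207 and 1145 in controls. The KOPTK1 values were 64.0, 63.3, 80.6 and 68.4 with targeting, against 319 and 313 in controls, and those of HPB-ALL were 189 and 219.9 with targeting, against 329 and 354. It rose in CUTLL1 by 0.52 with guides and 0.60 with ASOs, and fell in KOPTK1, at -2.31 with guides and -2.06 with ASOs, and in HPB-ALL, at -0.74. These 5 changes all passed the threshold, with adjusted p from 2.86e-08 to 0.00329. The comparisons across lines did not, at -0.83 (adjusted p = 0.0629) with guides and -0.73 (adjusted p = 0.268) with ASOs. Its 3 pseudogene rows held up to 8.7% as many counts as SLC2A3 itself.

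The phosphofructokinase step, which commits sugar to glycolysis, fell in its muscle-type and platelet-type isoforms. In CUTLL1 the normalised counts of PFKM were 1965, 2012, 1958 and 2071 with targeting, against 2819 and 2923 in controls. They were 3186, 3107, 3129 and 3079 in targeted KOPTK1 libraries, against 4514 and 4466 in KOPTK1 controls. For HPB-ALL they were 4043 and 4071 in the targeted libraries, against 6068 and 6047 in the controls. The groups did not overlap in any line, and the 5 single-experiment changes ran only from -0.58 to -0.50. The change was -0.54 (SE 0.031, adjusted p = 5.18e-07) with guides and -0.53 (SE 0.04, adjusted p = 5.94e-05) with ASOs. PFKP, the platelet-type isoform, differed more between lines. Targeted CUTLL1 libraries had 7615, 7471, 7628 and 7724 normalised counts of PFKP, against 9584 and 9388 in the CUTLL1 controls. Targeted KOPTK1 libraries had 5246, 5072, 5497 and 5349.8, and the KOPTK1 controls 8408 and 8081. Targeted HPB-ALL libraries had 3484 and 3379.5, and the HPB-ALL controls 6186 and 6237. It was lower in all 10 targeted libraries, with changes of -0.67 (SE 0.075, adjusted p = 3.24e-05) with guides and -0.43 (SE 0.064, adjusted p = 0.00112) with ASOs, and the fall ran from -0.29 in CUTLL1 with ASOs to -0.86 in HPB-ALL. PFKL, the liver-type isoform, changed little, at -0.01 (adjusted p = 0.862) with guides and 0.17 (adjusted p = 0.00632) with ASOs.

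PFKFB3 and PFKFB4 make and break fructose 2,6-bisphosphate, the activator of phosphofructokinase. PFKFB3 stood at 1524, 1537, 1596 and 1562 normalised counts in targeted CUTLL1 libraries, against 1686 and 1732 in CUTLL1 controls. In KOPTK1 the targeted libraries held 1478, 1565, 1601 and 1617, against 1073 and 1019.8 in the controls. The targeted HPB-ALL libraries held 3159 and 3192, against 1736 and 1689 in HPB-ALL controls. PFKFB3 was lower in the targeted libraries of CUTLL1 and higher in those of the other lines, with no overlap in any. Its change was -0.14 (SE 0.049, adjusted p = 0.027) in CUTLL1, 0.50 (SE 0.049, adjusted p = 3.51e-06) in KOPTK1 and 0.89 (SE 0.04, adjusted p = 2.87e-09) in HPB-ALL with guides. The CUTLL1 call did not last when a CUTLL1 targeted library was left out, at -0.13 (adjusted p = 0.0788) and -0.15 (adjusted p = 0.0591). Over all alternatives run, the adjusted p of that value ran from 0.017 to 0.187. Over the 3 lines PFKFB3 rose by 0.49 (adjusted p = 0.0133) with guides, or 0.73 (adjusted p = 4.57e-05, and 4.57e-05 to 0.27 over all alternatives) without the CUTLL1 guide control, and was not called with ASOs. Its paralogue PFKFB4 had 254 to 276 normalised counts in targeted CUTLL1 libraries, against 314 to 319 in controls. In KOPTK1 it had 157 to 190.3 with targeting, against 85.2 to 95.8, and in HPB-ALL 50.8 to 69.4 with targeting, against 31.7 to 42.9. PFKFB4 rose in KOPTK1 with both agents (1.00 with guides, 0.87 with ASOs) and in HPB-ALL, where the value was 0.67 (adjusted p = 0.00656) but 0.45 (adjusted p = 0.0752, and 0.000433 to 0.0752 over all alternatives) without the first targeted library.

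GPI, which turns glucose 6-phosphate into fructose 6-phosphate, fell by a small and even amount. The normalised counts of GPI were 16101, 16213, 16100.3 and 16345 in targeted CUTLL1 libraries, against 18779 and 18242 in their controls. KOPTK1 gave 15099, 15005, 15715 and 15190.2 with targeting, against 17696 and 17290.5 in its controls. HPB-ALL gave 13733 and 13298 with targeting, against 16474 and 16495 in its controls. All 10 targeted libraries lay below their controls, and the change was -0.25 (SE 0.028, adjusted p = 2.69e-05) with guides and -0.17 (SE 0.029, adjusted p = 0.00259) with ASOs.

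At the aldolase step the minor isoform rose. ALDOC, the aldolase best known from brain, had the largest rise among the enzymes. In CUTLL1 the normalised counts of ALDOC were 2415, 2177, 2549.5 and 2380.0 with targeting, against 1246 and 1125 in controls. They were 723, 586, 681 and 678 in targeted KOPTK1 libraries, against 207 and 233 in KOPTK1 controls. For HPB-ALL they were 116 and 90.7 in the targeted libraries, against 31.7 and 54.3 in the controls. The targeted libraries did not overlap the controls in any line, and the level differed more between lines than between arms. The change was 1.27 (SE 0.18, adjusted p = 0.000134) with guides and 1.33 (SE 0.098, adjusted p = 5.54e-05) with ASOs, a fold of 2.42 and 2.52. ALDOA, the aldolase of most tissues and by far the more abundant here, was not called in either comparison, at -0.07 (adjusted p = 0.282) with guides and 0.10 (adjusted p = 0.121) with ASOs. In KOPTK1 alone ALDOA rose, at 0.13 with guides and 0.20 with ASOs, and in HPB-ALL it fell, at -0.19; the KOPTK1 calls did not hold under every scaling. Per kilobase ALDOA stayed above ALDOC, with 38780.0 normalised counts in targeted and 39930.0 in control CUTLL1 libraries, against 1201 and 598 for ALDOC.

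TPI1, triosephosphate isomerase, also rose. Targeted CUTLL1 libraries had 24732, 24036, 25153 and 24889 normalised counts of TPI1, against 21146 and 20808 in the CUTLL1 controls. Targeted KOPTK1 libraries had 21447, 20046, 22415 and 21351, and the KOPTK1 controls 18603 and 18984. Targeted HPB-ALL libraries had 27186 and 25849.8, and the HPB-ALL controls 18498 and 18929. The targeted libraries lay above the controls in all 3 lines, with a change of 0.32 (SE 0.061, adjusted p = 0.00113) with guides and 0.24 (SE 0.034, adjusted p = 0.000967) with ASOs. GAPDH, the enzyme that oxidises glyceraldehyde 3-phosphate and a common reference transcript, was the most abundant member. GAPDH stood at 259994, 253319, 261406 and 262357 normalised counts in targeted CUTLL1 libraries, against 203928 and 197748 in CUTLL1 controls. In KOPTK1 the targeted libraries held 327326, 299827, 330670.0 and 319105, against 229815 and 231365 in the controls. The targeted HPB-ALL libraries held 274863 and 263323, against 200260.0 and 198577 in HPB-ALL controls. No targeted library overlapped its controls, and the change was 0.41 (SE 0.039, adjusted p = 1.16e-05) with guides and 0.45 (SE 0.037, adjusted p = 9.06e-05) with ASOs. GAPDH alone took 0.556% ± 0.008 of all counts in targeted and 0.44% ± 0.01 in control CUTLL1 libraries (SD, n = 4 and 2). It took 0.653% ± 0.027 in targeted and 0.488% ± 0.0057 in control KOPTK1 libraries (n = 4 and 2), and 0.593% ± 0.016 in targeted and 0.438% ± 0.00042 in control HPB-ALL libraries (n = 2 each). It was the highest of all 57820 rows in 13 libraries and the second in 3. Quantile scaling, which gives the same value to the same rank in every library, therefore left it at 0.04 (adjusted p = 0.337) with guides and 0.06 (adjusted p = 0.222) with ASOs. Over all alternatives its adjusted p ran from 1.38e-25 to 0.337 with guides and from 1.42e-25 to 0.222 with ASOs. The share of counts taken by GAPDH does not depend on that scaling.

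The lower steps mixed rises and falls. PGK1, the first step to return ATP, was not called in either comparison, at -0.06 (adjusted p = 0.147) and -0.05 (adjusted p = 0.266). PGAM1, the mutase that follows, was called in none of the 5 experiments (its 13 pseudogene rows held 0.424% to 5.84% as many counts). ENO1, the main enolase, fell, with a change of -0.29 (SE 0.048, adjusted p = 0.000421) with guides and -0.14 (SE 0.038, adjusted p = 0.0154) with ASOs, though the ASO value was -0.08 (adjusted p = 0.0783, and 0.000664 to 0.0783 over all alternatives) without the KOPTK1 ASO control. All 10 targeted libraries lay below their controls, with 142051 to 148732 normalised counts in targeted and 155550.0 to 157096 in control CUTLL1 libraries, 124766 to 130646 in targeted and 150288 to 151829 in control KOPTK1 libraries, and 90345 to 93456 in targeted and 121363 to 123554 in control HPB-ALL libraries. ENO2, the neuronal enolase, rose by 0.22 (SE 0.065, adjusted p = 0.0117) with guides and 0.37 (SE 0.082, adjusted p = 0.00731) with ASOs, most in KOPTK1 (0.49 and 0.56). Without the KOPTK1 controls those values were 0.12 (adjusted p = 0.0265, and 0.00305 to 0.0265 over all alternatives) with guides and 0.17 (adjusted p = 0.00436, and 3.09e-05 to 0.0274 over all alternatives) with ASOs. Per kilobase ENO1 still exceeded ENO2, with 54990.0 in targeted and 64420.0 in control KOPTK1 libraries, against 1947 and 1353 for ENO2.

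PKM, pyruvate kinase, makes pyruvate and the last ATP of the pathway. The normalised counts of PKM were 144869, 142222, 145256 and 147188 in targeted CUTLL1 libraries, against 103481 and 101982 in their controls. KOPTK1 gave 43344, 41403, 44034 and 43039.8 with targeting, against 32011 and 31261 in its controls. HPB-ALL gave 49656 and 47623 with targeting, against 42537 and 41758 in its controls. It was higher in all 10 targeted libraries, and the change was 0.34 (SE 0.048, adjusted p = 0.00016) with guides and 0.50 (SE 0.03, adjusted p = 2.75e-05) with ASOs, or 1.26-fold and 1.41-fold. The counts are per gene and do not separate its splice forms.

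Summed over the 19 enzymes, glycolysis took 1.76% ± 0.023 of counts in targeted and 1.63% ± 0.023 in control CUTLL1 libraries (SD, n = 4 and 2). In KOPTK1 the sum was 1.56% ± 0.044 with targeting and 1.44% ± 0.0092 in controls (n = 4 and 2), and in HPB-ALL 1.35% ± 0.028 with targeting and 1.3% ± 0.0028 in controls (n = 2 each). The ranges did not overlap in any line. Without GAPDH the sum was 1.2% ± 0.016 in targeted and 1.19% ± 0.013 in control CUTLL1 libraries, which overlapped. Without it the sum was lower with targeting in KOPTK1, at 0.908% ± 0.017 in targeted and 0.951% ± 0.0034 in control libraries, and in HPB-ALL, at 0.76% ± 0.011 in targeted and 0.858% ± 0.003 in control libraries, with no overlap in either line.

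**Figure D2:**
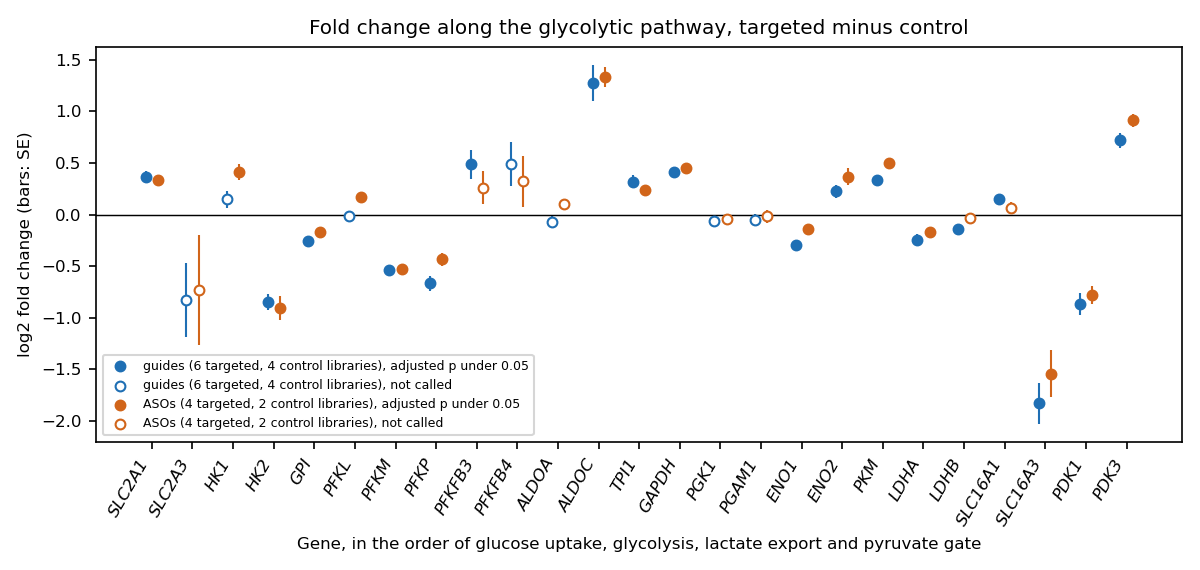
Log2 fold change (y axis, targeted minus control, bars SE) of 25 members placed in pathway order on the x axis, with guides in blue (6 targeted and 4 control libraries) and ASOs in orange (4 targeted and 2 control libraries); filled points passed an adjusted p of 0.05. Called falls with both agents sit at HK2, GPI, PFKM, PFKP, ENO1, LDHA, PDK1 and SLC16A3. Called rises with both agents sit at SLC2A1, ALDOC, TPI1, GAPDH, ENO2, PKM and PDK3.

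At the fate of pyruvate, LDHA, the lactate dehydrogenase subunit induced by HIF and MYC, fell, with a change of -0.25 (SE 0.058, adjusted p = 0.00355) with guides and -0.17 (SE 0.048, adjusted p = 0.02) with ASOs. Its counts ran from 28341 to 28759.6 in targeted CUTLL1 libraries, against 34510.2 to 34997 in controls, and from 23304 to 23742 in targeted HPB-ALL libraries, against 30202 to 30831 in controls. In KOPTK1 targeted libraries ran from 38709 to 41714, against 40716 to 41161, and neither KOPTK1 experiment was called. LDHB, the other subunit, fell, with a change of -0.14 (SE 0.039, adjusted p = 0.0103) with guides, or -0.07 (adjusted p = 0.191, and 0.000107 to 0.191 over all alternatives) over CUTLL1 and KOPTK1 alone. It was not called with ASOs, at -0.04 (adjusted p = 0.314). LDHA made up 38.1% ± 0.37 of the LDHA and LDHB counts in targeted and 41.5% ± 0.078 in control CUTLL1 libraries (SD, n = 4 and 2). The share was 37.1% ± 0.35 in targeted and 39.3% ± 0.24 in control HPB-ALL libraries (n = 2 each). In KOPTK1 it was 40.4% ± 0.73 with targeting and 40.7% ± 0.18 in controls (n = 4 and 2), which overlapped. With ASOs the LDHA value was -0.07 (adjusted p = 0.0939) without the CUTLL1 ASO control, which leaves KOPTK1 alone, and with guides -0.16 (adjusted p = 0.0871) over CUTLL1 and KOPTK1 alone. Over all alternatives its adjusted p ran from 4.03e-05 to 0.0871 with guides and from 0.000218 to 0.0939 with ASOs.

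The 2 lactate carriers differed in size and direction. SLC16A3, the lactate exporter of strongly glycolytic and hypoxic cells, had the largest fall of any tested member in both comparisons. In CUTLL1 the normalised counts of SLC16A3 were 234, 206, 259 and 229 with targeting, against 502 and 506 in controls. They were 87.4, 109, 107 and 133 in targeted KOPTK1 libraries, against 428 and 489 in KOPTK1 controls. For HPB-ALL they were 7.18 and 11.5 in the targeted libraries, against 39.6 and 42.9 in the controls. The groups did not overlap. The change was -1.83 (SE 0.20, adjusted p = 2.41e-05) with guides and -1.54 (SE 0.23, adjusted p = 0.00119) with ASOs, to 0.281 and 0.344 of the control level. SLC16A1, the more widely expressed lactate and pyruvate carrier, changed little. Targeted CUTLL1 libraries had 12984, 13072, 12824 and 12459 normalised counts of SLC16A1, against 10940.3 and 11217 in the CUTLL1 controls. Targeted KOPTK1 libraries had 10802, 11972, 10441 and 11188, and the KOPTK1 controls 10699.7 and 11219.5. Targeted HPB-ALL libraries had 11353 and 11730.3, and the HPB-ALL controls 10461 and 10699.6. Targeted and control libraries overlapped in KOPTK1, and the change was 0.15 (SE 0.041, adjusted p = 0.0083) with guides, while the ASO value of 0.06 (adjusted p = 0.402) did not pass. Per kilobase SLC16A1 was the main carrier in all lines, with 2538 in targeted and 2506 in control KOPTK1 libraries, against 22.6 and 95.0 for SLC16A3.

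Pyruvate dehydrogenase kinases switch off the entry of pyruvate into the mitochondrion's citric acid cycle, and PDK1 is a known HIF target. PDK1 and PDK3 moved in opposite directions. PDK1 stood at 824, 835, 805 and 798 normalised counts in targeted CUTLL1 libraries, against 1469 and 1557 in CUTLL1 controls. In KOPTK1 the targeted libraries held 1026, 1239, 1056 and 1067, against 1613 and 1614 in the controls. The targeted HPB-ALL libraries held 375 and 425, against 879 and 878 in HPB-ALL controls. PDK1 was lower in all 10 targeted libraries, with changes of -0.87 (SE 0.11, adjusted p = 5.69e-05) with guides and -0.78 (SE 0.084, adjusted p = 0.000276) with ASOs, or to 0.547 and 0.582 of control. The normalised counts of PDK3 were 1231, 1338, 1256 and 1295 in targeted CUTLL1 libraries, against 775 and 722 in their controls. KOPTK1 gave 1262, 1221, 1202 and 1245 with targeting, against 649 and 606 in its controls. HPB-ALL gave 1877 and 1815 with targeting, against 1307 and 1186 in its controls. PDK3 was higher in all 10, by 0.72 (SE 0.069, adjusted p = 1.1e-05) with guides and 0.92 (SE 0.064, adjusted p = 4.61e-05) with ASOs, or 1.65-fold and 1.89-fold.

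**Figure D3:**
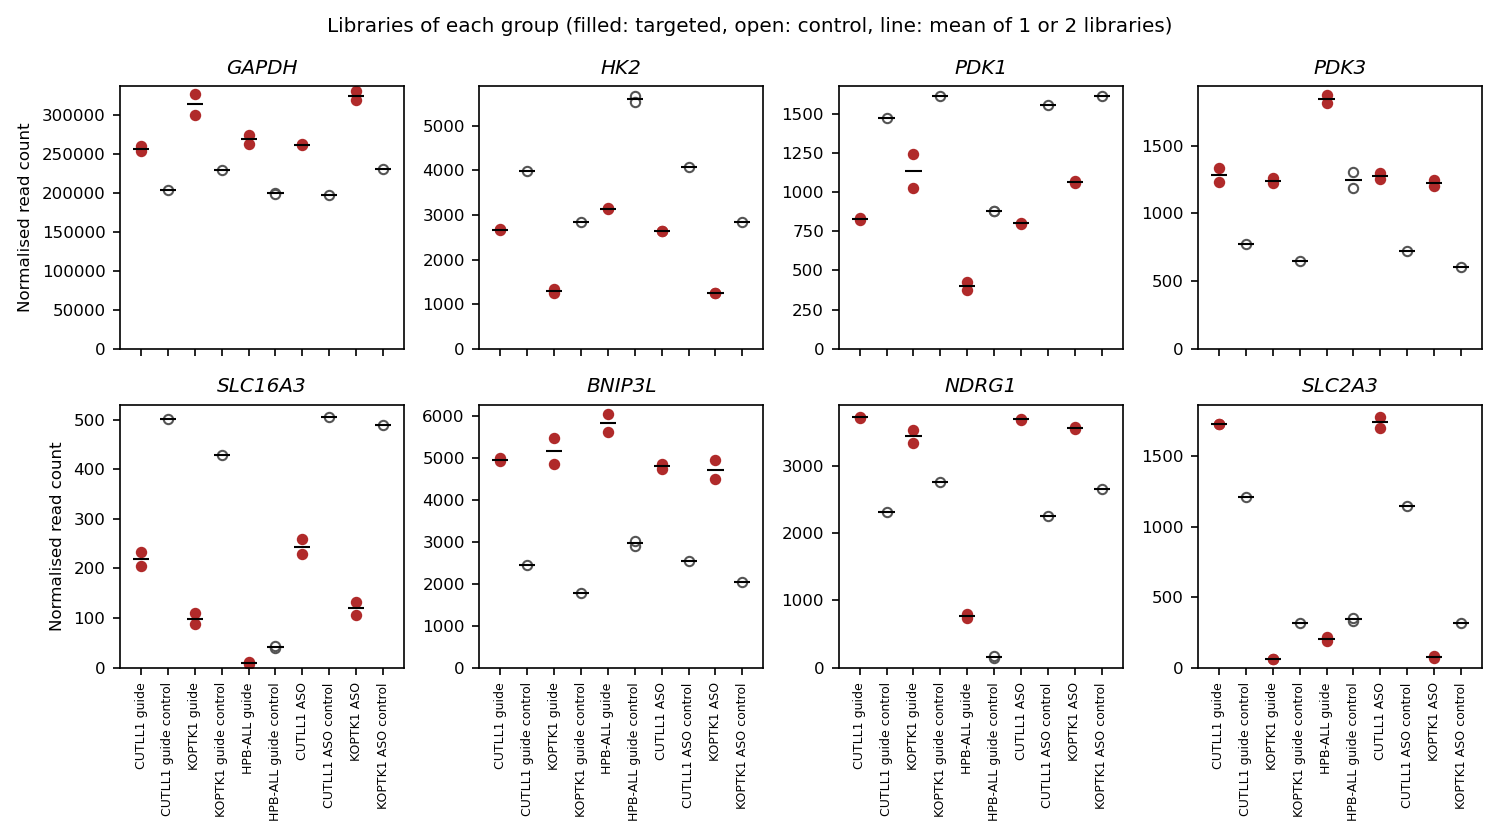
Normalised read count (y axis, from 0) of 8 members in every library, with targeted libraries as filled points left of their open control points and a line at the mean of the 1 or 2 libraries. GAPDH, PDK3, BNIP3L and NDRG1 lie higher and HK2, PDK1 and SLC16A3 lower in the targeted libraries of each experiment, while SLC2A3 is higher with targeting in CUTLL1 and lower in KOPTK1 and HPB-ALL.

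Among the oxygen-sensing genes, the HIF1A transcript rose. In CUTLL1 the normalised counts of HIF1A were 10008, 9953, 9483 and 9308 with targeting, against 7075 and 7017 in controls. They were 7448, 7581, 7117 and 6948 in targeted KOPTK1 libraries, against 5207 and 5199 in KOPTK1 controls. For HPB-ALL they were 6479.9 and 6608 in the targeted libraries, against 6261 and 6231 in the controls. The groups did not overlap, yet the rise in HPB-ALL was small, at 0.07 (adjusted p = 0.0382), against 0.50 (adjusted p = 1.34e-07) in CUTLL1 and 0.53 (adjusted p = 7.53e-08) in KOPTK1 with guides. The change over lines was 0.32 (SE 0.077, adjusted p = 0.00423) with guides and 0.43 (SE 0.03, adjusted p = 4.75e-05) with ASOs. VHL, the ligase subunit that recognises hydroxylated HIF, rose by 0.20 (SE 0.049, adjusted p = 0.00498) with guides and was not called with ASOs, at 0.04 (adjusted p = 0.529), or with guides over CUTLL1 and KOPTK1 alone, at 0.16 (adjusted p = 0.0508, and 0.000404 to 0.0508 over all alternatives). EGLN3, a hydroxylase that HIF itself induces, rose by 0.36 (SE 0.10, adjusted p = 0.0111) with guides and 0.42 (SE 0.11, adjusted p = 0.0127) with ASOs. It was called in CUTLL1 with both agents and in HPB-ALL but not in KOPTK1, where its values were 0.01 and 0.20. Without the CUTLL1 control it was 0.30 (adjusted p = 0.0548, and 0.000398 to 0.0876 over all alternatives) with guides and 0.20 (adjusted p = 0.063, and 0.000419 to 0.063 over all alternatives) with ASOs.

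EGLN1, the main oxygen-sensing prolyl hydroxylase, was nearly absent from HPB-ALL; it was picked out after its values were seen. Targeted CUTLL1 libraries had 2088, 1903, 2075 and 1881 normalised counts of EGLN1, against 1284 and 1389 in the CUTLL1 controls. Targeted KOPTK1 libraries had 1259, 1466, 1385 and 1422, and the KOPTK1 controls 1054 and 1158. Targeted HPB-ALL libraries had 8.78 and 6.15, and the HPB-ALL controls 7.93 and 6.67. In HPB-ALL this came from 11 and 8 reads with targeting and from 6 and 7 reads in controls. Targeted CUTLL1 libraries lay above their controls, with a rise of 0.63 (adjusted p = 0.00736) under guides and of 0.51 (adjusted p = 0.0235) under ASOs. The CUTLL1 call with ASOs was lost without the first CUTLL1 ASO library, at 0.44 (adjusted p = 0.102, and 0.000441 to 0.109 over all alternatives), and both CUTLL1 calls were lost with no filter on low values. The KOPTK1 changes, 0.37 (adjusted p = 0.0847) under guides and 0.28 (adjusted p = 0.184) under ASOs, did not pass. The genes beside EGLN1 in the RefSeq annotation (GRCh38.p14), SPRTN and TSNAX, were well expressed in HPB-ALL, at 1343 to 2031 and 1680 to 2032 normalised counts. The upstream sequence of EGLN1 holds 1 ACGTG, close to its start.

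BNIP3L and BNIP3, proteins that mark mitochondria for removal by autophagy, rose where they were expressed. BNIP3L stood at 4991, 4919, 4745 and 4863 normalised counts in targeted CUTLL1 libraries, against 2452 and 2546 in CUTLL1 controls. In KOPTK1 the targeted libraries held 4849.8, 5487, 4506 and 4942, against 1769 and 2043 in the controls. The targeted HPB-ALL libraries held 5627 and 6055, against 2906 and 3027 in HPB-ALL controls. All 10 targeted libraries lay above their controls without overlap, and the change was 1.15 (SE 0.092, adjusted p = 3.41e-06) with guides and 1.06 (SE 0.074, adjusted p = 4.57e-05) with ASOs, or 2.22-fold and 2.09-fold. BNIP3, a textbook HIF target picked out here after its values were seen, had 176, 185, 198 and 179.7 normalised counts in targeted CUTLL1 libraries, against 44.9 and 71.4 in controls. In KOPTK1 it had 849, 829.7, 842 and 846 with targeting, against 499 and 519. HPB-ALL had 0 and 0 reads with targeting and 2 and 2 reads in controls, at or below the floor of 3 reads, so no fold is given there although that experiment's fit counts it among the called. The rise of BNIP3 in CUTLL1 was 1.98 (adjusted p = 2.87e-06) for guides and 1.39 (adjusted p = 5.42e-05) for ASOs. Its change in KOPTK1 was 0.75 (adjusted p = 0.0043) for guides and 0.70 (adjusted p = 0.00643) for ASOs. PPP2R2D, its neighbour in the RefSeq annotation, had 1257 to 1332 normalised counts in HPB-ALL. The other lines had more PPP2R2D, at 2261 to 2334 in KOPTK1 and 1992 to 2347 in CUTLL1.

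P4HA1, a prolyl hydroxylase that matures collagen and a HIF target, rose in each experiment, by 0.39 in KOPTK1 with ASOs to 0.65 in HPB-ALL. The normalised counts of P4HA1 were 2777, 2952, 2849 and 2932 in targeted CUTLL1 libraries, against 1946 and 1944 in their controls. KOPTK1 gave 1571, 1658, 1480.4 and 1578 with targeting, against 1047 and 1163 in its controls. HPB-ALL gave 3175 and 3243 with targeting, against 2039 and 2063 in its controls. There was no overlap in any line, and the change was 0.61 (SE 0.039, adjusted p = 8.02e-07) with guides and 0.48 (SE 0.058, adjusted p = 0.000436) with ASOs. Its relative P4HA2 was nearly absent, with 0 to 5.11 normalised counts, and ADM, a vasodilator peptide gene, had 0 to 23.0, so neither was tested. In CUTLL1 ADM had 21.2, 20.8, 23.0 and 16.3 in targeted libraries, against 13.7 and 4.61 in controls. ANKRD37, a HIF target of poorly known function, was not called, at 0.06 (adjusted p = 0.683) and 0.02 (adjusted p = 0.949). VEGFA, the angiogenic factor, was not called over the lines, at -0.22 (adjusted p = 0.101) with guides and 0.13 (adjusted p = 0.121) with ASOs. In HPB-ALL alone it fell, with 3662 and 3454 in targeted libraries and 5487 and 5161 in controls, a change of -0.58 (SE 0.051, adjusted p = 8.92e-07). In KOPTK1 with ASOs it rose by 0.22 (adjusted p = 0.0086, and 0.000469 to 0.0533 over all alternatives).

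NDRG1, a stress- and hypoxia-induced gene linked to differentiation, rose in every line. In CUTLL1 the normalised counts of NDRG1 were 3729.7, 3714, 3699 and 3689.9 with targeting, against 2318 and 2252 in controls. They were 3536, 3339.6, 3583 and 3547 in targeted KOPTK1 libraries, against 2764 and 2656 in KOPTK1 controls. For HPB-ALL they were 799 and 732 in the targeted libraries, against 139 and 167 in the controls. No targeted library overlapped its controls. The change was 1.28 (SE 0.30, adjusted p = 0.0041) with guides and 0.57 (SE 0.066, adjusted p = 0.000384) with ASOs. The guide value rested largely on HPB-ALL, where it was 2.32 (SE 0.073, adjusted p = 1.52e-10), the largest rise of any member in any experiment. Over CUTLL1 and KOPTK1 alone the guides gave 0.50 (adjusted p = 0.00168, and 0.000919 to 0.0134 over all alternatives). DDIT4, an mTOR inhibitor induced by hypoxia and by other stress, was the 1 member of its role group that fell with guides. Targeted CUTLL1 libraries had 3949.8, 3845, 3968 and 4010.5 normalised counts of DDIT4, against 3998 and 4017 in the CUTLL1 controls. Targeted KOPTK1 libraries had 745, 705, 790.1 and 812, and the KOPTK1 controls 893 and 951. Targeted HPB-ALL libraries had 4456 and 4525, and the HPB-ALL controls 4753 and 4752. Each targeted library lay below its own agent's control, but across agents the CUTLL1 libraries overlapped. Only KOPTK1 passed on its own, at -0.30 (adjusted p = 0.000117) with guides and -0.25 (adjusted p = 0.000521) with ASOs. DDIT4 in KOPTK1 with ASOs ran from -0.27 to -0.08 over all alternatives, with adjusted p from 0.000256 to 0.117. Its guide change of -0.13 (SE 0.049, adjusted p = 0.0358) did not pass without the KOPTK1 guide control, at -0.06 (adjusted p = 0.162), and its adjusted p ran from 0.0199 to 0.162 over the alternatives. With ASOs it was -0.13 (adjusted p = 0.109).

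Whether the guide effect was the same in the 3 lines was tested with an F test in limma on the 10 group means of all 16 libraries. It differed for 24 of 36 members, 66.7%, against 43.7% of the 14020 genes tested. For 19 of the 24 no lines were called in opposite directions. For PFKFB3, SLC2A3, HK1, ALDOA and BNIP3 lines were called in opposite directions, BNIP3 on the 2 reads or fewer of HPB-ALL. The opposite directions rest on the HPB-ALL call for HK1, the CUTLL1 call for PFKFB3 and the KOPTK1 call for ALDOA. None of these calls held under every alternative. The ALDOA difference did not pass under TMM or quantile scaling. The smallest p-values were those of NDRG1 (adjusted p = 5.38e-07), PFKFB3 (1.81e-06) and SLC2A3 (1.84e-06). NDRG1 rose by 0.68 in CUTLL1, 0.31 in KOPTK1 and 2.32 in HPB-ALL. HK2 (adjusted p = 0.000153) fell most in KOPTK1, at -1.14, against -0.58 in CUTLL1 and -0.83 in HPB-ALL. PDK1 (adjusted p = 0.00799) fell most in HPB-ALL, at -1.14, against -0.82 in CUTLL1 and -0.52 in KOPTK1. The falls of PFKM (adjusted p = 0.45) and GPI (0.343) and the rises of GAPDH (0.39) and P4HA1 (0.572) were not shown to differ between lines.

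The lines also differed before any targeting. Control levels differed between the lines for 35 of 36 members, where 91.5% of all genes did, SLC16A1 being the exception (adjusted p = 0.377). The smallest p-values were those of DDIT4, NDRG1 and HK1. DDIT4 was low in KOPTK1, at 893 and 951 in KOPTK1 controls, 3998 and 4017 in CUTLL1 controls and 4753 and 4752 in HPB-ALL controls. NDRG1 was low in HPB-ALL, where its controls had 139 and 167, with 2318 and 2252 in CUTLL1 and 2764 and 2656 in KOPTK1. HK1 was highest in HPB-ALL controls at 15924 and 16169, with 8810.4 and 8907 in CUTLL1 and 5697 and 5388 in KOPTK1. HPB-ALL controls were lower than CUTLL1 controls for EGLN1 (-7.34), ALDOC (-4.80), NDRG1 (-3.90), SLC16A3 (-3.58) and PFKFB4 (-3.07), and higher for VEGFA (1.69) and ANKRD37 (1.61), all with adjusted p of 1.42e-05 or less in limma. KOPTK1 controls were lower than CUTLL1 controls for ALDOC (-2.42), SLC2A3 (-1.89), PFKFB4 (-1.80), PKM (-1.70) and ENO2 (-1.53), and higher for BNIP3 (3.15). For NDRG1, ALDOC and SLC16A3 HPB-ALL controls lay further from CUTLL1 controls than targeted from control libraries did in either comparison, and targeted HPB-ALL libraries still had less NDRG1 (732 to 799) than CUTLL1 controls (2252 to 2318).

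**Figure D4:**
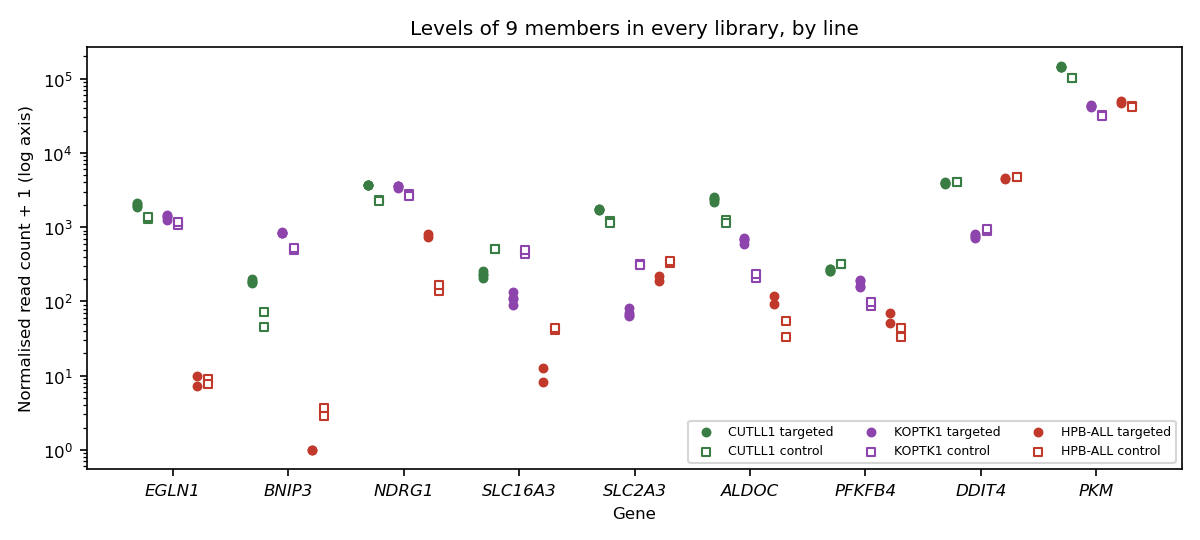
Normalised read count plus 1 (y axis, log scale) of 9 members in all 16 libraries, coloured by line, with filled circles for targeted libraries left of open squares for controls. HPB-ALL libraries lie far below the others for EGLN1 and BNIP3 and lowest for NDRG1, SLC16A3, ALDOC and PFKFB4, while KOPTK1 is lowest for DDIT4.

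Guides and ASOs were compared in CUTLL1 and KOPTK1, the lines that had both. No member differed between agents in limma (0 of 36 members and 0% of 14020 genes), and 4 members and 1393 genes had an unadjusted p under 0.05; edgeR called 0 genes and DESeq2 1, with 0 members in each. The difference of guides minus ASOs ran from -0.17 for SLC2A3 to 0.32 for BNIP3, with SEs of 0.029 to 0.25. The smallest p-values were those of BNIP3L at 0.22 (SE 0.074, adjusted p = 0.496), HIF1A at 0.08 (SE 0.032, adjusted p = 0.496) and PFKP at -0.09 (SE 0.036, adjusted p = 0.496). A p that misses the threshold does not show equal effects. Abundant members had small differences with small SEs, such as GAPDH at -0.06 (SE 0.055, adjusted p = 0.696) and HK2 at 0.05 (SE 0.045, adjusted p = 0.709).

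Genes around the pathway were read the same way, from lists of its other members. Of 12 tested genes of pyruvate dehydrogenase and mitochondrial pyruvate entry, 7 rose and 2 fell with guides, and 7 rose and 3 fell with ASOs. MPC1, a subunit of the mitochondrial pyruvate carrier, rose by 0.93 (adjusted p = 9.94e-08) with guides and 0.72 (adjusted p = 1.51e-05) with ASOs, and BSG, the chaperone of the lactate carriers, by 0.61 (adjusted p = 4.86e-06) and 0.57 (adjusted p = 3.19e-05). PDHB, a dehydrogenase subunit, rose by 0.61 and 0.56, while DLAT, the acetyltransferase of the same complex, was at -0.68 and -0.75. PDHA1 (-0.07 and -0.03) was not called with either agent. PDK2, a further kinase of the complex, was at -0.71 with guides, not called, and fell with ASOs, at -1.91 (adjusted p = 0.00477). It had 56.3 to 82.9 normalised counts in targeted and 289 to 299.9 in control KOPTK1 libraries and was nearly absent from the other lines. Of the 8 pentose phosphate genes, 3 rose and 4 fell with both agents: PGD, a dehydrogenase of its oxidative branch, rose by 0.58 (adjusted p = 3.28e-07) and 0.61 (adjusted p = 2.41e-05), whereas PGLS was at -0.74 and -0.61 and RPIA at -0.77 and -0.48. Of 10 tested other isozymes, 2 rose and 3 fell with guides and 3 rose and 5 fell with ASOs. HKDC1, a further hexokinase, had 2.76 to 22.3 normalised counts in targeted libraries and 218 to 1349 in controls and fell, at -5.08 (adjusted p = 2.21e-06) and -4.45 (adjusted p = 3.3e-05), in the direction of HK2. ENO3 was at -1.43 and -1.49, PGM1 at 0.28 and 0.28 and PCK2 at -0.37 and -0.19, each called, while PFKFB1 (0.30 and 0.27) was called with neither agent. G6PC3 (-0.13 and -0.18) was called with ASOs alone.

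Of 9 tested genes of other HIF subunits and oxygen sensing, 5 rose and 1 fell with each agent. ARNT, the DNA-binding partner of HIF1A, rose by 0.57 (adjusted p = 1.13e-06) with guides and 0.49 (adjusted p = 7.03e-05) with ASOs, and HIF1AN, the asparaginyl hydroxylase that restrains HIF, by 0.54 (adjusted p = 7.14e-05) and 0.44 (adjusted p = 0.000255). RBX1 (0.25 and 0.16) and TCEB2 (0.16 and 0.19), parts of the VHL ligase, rose less, while CUL2 (0.07 and -0.05) was called with neither agent. EGLN2 (0.16 and 0.24) was called with ASOs alone. Of 21 tested other HIF targets, 10 rose and 6 fell with guides and 8 rose and 5 fell with ASOs. KDM3A, a hypoxia-induced histone demethylase, rose by 0.89 (adjusted p = 5.54e-08) and 0.83 (adjusted p = 1.08e-05), WSB1 by 0.75 and 0.71, RIOK3 by 0.33 and 0.28 and NARF by 0.25 and 0.28, all called. PPFIA4 (0.48 and 0.80) was called with neither agent, and SPAG4 (-0.49) was not called with guides and did not pass the filter with ASOs. Of 11 tested glucose and MYC regulators, 1 rose and 6 fell with guides and 2 rose and 5 fell with ASOs. MYC, which drives glycolytic genes in T-ALL, fell, at -2.21 (adjusted p = 5.65e-07) and -1.95 (adjusted p = 0.000135), with 1804 to 6086 normalised counts in targeted libraries and 10290 to 24340 in controls. ESRRA (-0.74 and -0.54) and MLX (-0.37 and -0.37) fell as well, while SIRT6 (-0.10 and -0.02) was called with neither agent. MLXIP (0.12 and 0.24) was called with ASOs alone. In each list the shares of called genes are to be set against the 67.7% and 65.0% of all genes. Rises are to be set against 32.7% and 31.8% of all genes, and falls against 35.0% and 33.2%.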

How the data were processed

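The authors deposited 1 table of normalised read counts, a signal divided by a factor per library, for 16 libraries. The submitters' processing notes name STAR 1.4.2, DESeq2 and the build hg19, with no role for each, and per the labels' protocols libraries were made with a directional kit. Low values were whole multiples of a step in each library (100% of values whole to a tolerance of 1e-06), so reads could be recovered. CUTLL1 ASO replicate 1, whose factor of 0.999 is close to 1, was left out of tests on recovered reads.

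Values were tested as log2(normalised count + 1) with limma 3.58.1 in R 4.3.3 (trended variance, genes with a mean of 20 or more, Benjamini-Hochberg adjusted p under 0.05). The guide and ASO comparisons had line as a term, and single experiments and differences between lines or agents came from 1 fit of all 10 groups, in which 4 control groups with 1 library are assumed to vary like the others. Pseudocount, filter, scaling, moderation, replicate block, left-out libraries, edgeR 4.0.16 and DESeq2 1.42.0 were alternatives. The scripts were tested on simulated data.

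The members and lists were chosen with earlier results of these data known. Values in every library are given for up to 4 called members per direction and role group with the smallest p in the guide comparison and the 3 with the smallest p in each test between lines or agents; exceptions are stated. Some genes of the other lists are not reported here. Levels per kilobase used the longest principal transcript in GENCODE v29.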

Additional observations from a re-analysis of the deposited data

Results flagged for a closer look

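For 24 of 36 tested members the guide effect differed between the 3 lines by limma's F test, against 43.7% of all genes tested. Adjusted p-values are given in parentheses after each gene, and values are log2 changes of targeted minus control libraries. In 4 of them lines with enough reads were called in opposite directions: PFKFB3 (1.81e-06), SLC2A3 (1.84e-06), HK1 (3.16e-06) and ALDOA (0.0067). PFKFB3 was at -0.14 in CUTLL1, 0.50 in KOPTK1 and 0.89 in HPB-ALL. SLC2A3 was at 0.52 in CUTLL1, -2.31 in KOPTK1 and -0.74 in HPB-ALL. HK1 was at 0.23 in CUTLL1, 0.46 in KOPTK1 and -0.11 in HPB-ALL, and ALDOA at -0.09 in CUTLL1, 0.13 in KOPTK1 and -0.19 in HPB-ALL. The calls of HK1 in HPB-ALL, PFKFB3 in CUTLL1 and ALDOA in KOPTK1 did not hold under every alternative. BNIP3 (2.16e-06) rests on 2 or fewer reads in every HPB-ALL library.

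For the genes listed next the change differed between lines, but no lines were called in opposite directions. They were NDRG1 (5.38e-07), HIF1A (9.61e-06), PFKP (3.03e-05), VEGFA (8.85e-05), HK2 (0.000153), LDHA (0.000597), ENO2 (0.00101), BNIP3L (0.00148), TPI1 (0.00153) and PKM (0.00362). The same held for ENO1 (0.00428), PDK1 (0.00799), LDHB (0.00845), DDIT4 (0.0113), PGK1 (0.013), PFKFB4 (0.0153), PDK3 (0.0244), PFKL (0.0355) and EGLN3 (0.0414). HIF1A was at 0.50 in CUTLL1, 0.53 in KOPTK1 and 0.07 in HPB-ALL. BNIP3L was at 1.01 in CUTLL1, 1.54 in KOPTK1 and 0.98 in HPB-ALL, and TPI1 at 0.21 in CUTLL1, 0.16 in KOPTK1 and 0.50 in HPB-ALL. VEGFA was at -0.04 in CUTLL1, 0.14 in KOPTK1 and -0.58 in HPB-ALL, with HPB-ALL alone called. Signs also differed for PFKFB4, at -0.30 in CUTLL1 (not called) and 1.00 in KOPTK1. PGK1 was at -0.13 in CUTLL1 and 0.05 in KOPTK1 (not called). Each line has 2 targeted guide libraries and 1 or 2 controls, and line and its control libraries cannot be told apart where there is 1 control.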

How the results depend on the processing

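Of the called members, 18 of 25 in the guide comparison and 20 of 24 in the ASO comparison kept their call under every alternative run. Quantile scaling moved the median change of all genes with guides to 0.07, against -0.03, and turned the direction of PGK1 in KOPTK1 with guides (-0.077) and with ASOs (-0.12) and of ALDOA in CUTLL1 with ASOs (-0.14). With TMM scaling the falling members of CUTLL1 guides numbered 7, and the differences between lines of PFKL, ALDOA, PGK1, ENO1, PKM and LDHB no longer passed; the cause was not tested. For guides minus ASOs, 1 gene was called with a pseudocount of 5, 1501 with no filter on low values and 1 with DESeq2, and leaving out 1 library gave 0 to 4. Leaving out 1 library gave PFKFB3 with ASOs -0.13 to 0.66 and SLC2A3 with ASOs -2.06 to 0.60, the ends being CUTLL1 or KOPTK1 alone, since each then loses its only ASO control. With a replicate block, 15 members rose and 9 fell with guides (4460 and 4728 of all genes), and 15 rose and 6 fell with ASOs (3579 and 3722 of all genes). The numbers are not known to pair the libraries: in HPB-ALL, those of the same number deviated from their groups with a correlation of -0.00556. On recovered reads edgeR called 4850 genes up and 5195 down with guides and 3936 up and 4452 down with ASOs. ADM and P4HA2 were not tested. In HPB-ALL BNIP3 had 2 or fewer reads in every library, so its call there enters the counts but no change is read from it. EGLN1 had 6 to 11 reads in HPB-ALL libraries and was not called, with too few reads for a change to be detectable at this depth.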

Other observations

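Several hypoxia genes outside the 38 changed by more than most members did. MIR210HG, the host transcript of a hypoxia-induced miRNA, was at 1.10 (adjusted p = 0.00313) with guides and 1.53 (adjusted p = 0.0295) with ASOs in limma, and CITED2, which competes with HIF1A for its coactivator, at 0.85 (adjusted p = 0.000253) and 1.04 (adjusted p = 0.00672). EPAS1, a second HIF alpha subunit, fell, at -0.62 (adjusted p = 0.0377) and -1.24 (adjusted p = 0.00758). BHLHE40, a hypoxia-induced repressor, was at -1.50 (adjusted p = 0.000904) with guides and -0.60 (adjusted p = 0.212) with ASOs. These 4 genes were picked after their values were seen. MIR210HG was low, with 36.8 to 54.3 normalised counts in targeted libraries and 5.87 to 33.4 in controls. EPAS1 fell most in KOPTK1, with 309 to 391 in targeted libraries and 1164 to 1182 in controls. In HPB-ALL it had 165 to 166 with targeting and 186 to 190 in controls. BHLHE40 overlapped its controls in CUTLL1, with 21.8 to 32.7 in targeted libraries and 23.0 to 35.1 in controls.

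EGLN1 and BNIP3 were both nearly absent from HPB-ALL in both arms, while BNIP3L and EGLN3 were expressed there. JAKMIP3, beside BNIP3 in the RefSeq annotation, had 39.2 to 92.5 normalised counts in HPB-ALL. It was also low where BNIP3 was expressed, at 16.6 to 115.3 in KOPTK1 and 21.4 to 54.1 in CUTLL1.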
